A study of Mus musculus with 10 samples.

Results

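A group of 10 noncollagenous matrix genes is described here for the mouse hippocampus, across vehicle and Visudyne libraries. They are fibronectin (Fn1), periostin (Postn), osteonectin (Sparc), the matrix Gla protein gene (Mgp), Islr, Aebp1, the fibulins Fbln1 and Fbln2, fibrillin 1 (Fbn1) and elastin (Eln). The 10 genes, of 28871 in the table, were chosen by name with their differences between the 2 groups already known, so those differences are given as descriptions and support nothing. The 5 vehicle and 5 Visudyne samples came from wild-type C57BL/6J males at 2 months of age, and are numbered here as in the labels. Visudyne is verteporfin for injection, a dye that damages nearby cells once it is lit. It was placed in the cisterna magna, the fluid space under the cerebellum, and lit at 689 nm through the closed skull to ablate meningeal lymphatic vessels. Controls had vehicle in its place under the same protocol. The procedure was done again 2 weeks later, and total RNA of the whole hippocampus was taken 2 weeks after that. The comparison asks how the loss of this drainage bears on hippocampal transcripts. The labels do not say that each sample is a separate animal, so p-values measure the spread between these samples.

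Fibronectin is a secreted dimer that cells stretch into fibrils through integrins, and the fibrils then serve as a template on which collagens and other proteins are laid down. Elastic fibres are built from a core of crosslinked elastin on a scaffold of fibrillin microfibrils, with fibulins joining the parts to each other and to cells. In the brain most such matrix lies in the meninges, in vessel walls and around the perivascular space, whereas SPARC is also made by glia and endothelium.

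Upstream sequence is shown for Aebp1 and Islr, as described further on. Of the 10 genes, these varied within groups most like the fibroblast markers (Aebp1) and most like Mgp (Islr). The relation of Aebp1 did not pass adjustment, and Fbln1 lay about as close to the fibroblast markers as Islr. The windows hold the 250 bases before the RefSeq start (GRCm38.p6, coding strand, 5′ to 3′). Capitals mark a CAGA-type element of the kind that SMAD proteins bind, spelled CAGACA on 1 strand. Its other strand, TGTCTG, is what the Islr window shows. The Aebp1 window is chr11:5861616-5861865 on the plus strand and overlaps no GENCODE transcript. The Islr window is chr9:58158555-58158804 on the minus strand and lies within Islr, in an intron of a longer GENCODE transcript.
Aebp1: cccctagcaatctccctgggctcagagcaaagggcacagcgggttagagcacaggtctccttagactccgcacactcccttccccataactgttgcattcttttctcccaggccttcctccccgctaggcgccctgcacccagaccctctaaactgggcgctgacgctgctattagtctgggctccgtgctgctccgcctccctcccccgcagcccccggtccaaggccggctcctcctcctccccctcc
Islr: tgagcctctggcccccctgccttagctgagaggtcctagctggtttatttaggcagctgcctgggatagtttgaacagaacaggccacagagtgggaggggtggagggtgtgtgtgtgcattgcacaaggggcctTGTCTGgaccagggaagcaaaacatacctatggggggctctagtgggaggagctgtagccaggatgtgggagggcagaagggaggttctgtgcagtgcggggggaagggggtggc
The Islr window held 1 match to CAGACA, 115 bases before the start, and the Aebp1 window held 0. Shorter strings such as CAGAC, which the Aebp1 window contains, were not counted. The GC content was 64.4% for Aebp1 and 59.6% for Islr, against a median of 52.4% over 32851 promoter entries. Of the 10 genes, 7 have an entry (all but Fn1, Mgp and Eln). Short motifs were searched on both strands of the 250 bases. A gene was counted when any of its entries matched, whereas the percentages are shares of single entries. CAGACA was found for Fbln1, Islr and Sparc and in 17.1% of all entries. The GC box GGGCGG was found for Fbln1, Fbln2 and Fbn1 and in 32.7% of entries, and TATAAA for Postn alone of the 7, 26 bases before 1 of its starts, and in 12.4% of entries. The TEAD site GGAATG (12.6% of entries) and the AP-1 site TGANTCA (6.75%) were found for 0 of the 7. A match is a string of letters and not a measured binding site.

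Total counts ranged from 51165271 to 68895223 per sample. The hippocampal neuron markers Prox1, Wfs1, Neurod6, Bcl11b, Spink8, Fibcd1, Dsp and Cpne4 were present in every library, with a summed level of 749 to 831 CPM with vehicle and 694 to 783 CPM with Visudyne. CPM are counts scaled to a common library total after TMM normalization. Within groups, 44.6% of the variance of tested genes lay on 1 axis, with vehicle 1 and Visudyne 12 at one end (scores 0.51 and 0.51) and Visudyne 15 at the other (-0.50). The relation of each of the 10 genes to this axis is given further on. The sample numbers fall into 5 sets of 3 consecutive numbers, each with 1 vehicle and 1 Visudyne sample (1 and 3, 4 and 6, 7 and 9, 10 and 12, 13 and 15), although the labels do not say that a set was handled together. Deviations from the group means, over 19093 genes, correlated at 0.11 to 0.51 between the samples of a set (median 0.19) and at -0.60 to 0.54 between the 20 other vehicle and Visudyne pairs (median -0.06). Results are therefore also given with the sets as a block where this changes a call. In bulk RNA, fewer cells of a type and less RNA per cell cannot be told apart.

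Among the adhesive glycoproteins, Fn1 (ENSMUSG00000026193, chr1:71585520-71653200, minus strand; gene coordinates are GENCODE M21 on GRCm38) measured 23.2, 25.5, 19.2, 15.8 and 18.2 CPM in vehicle samples 1, 4, 7, 10 and 13. It measured 37.9, 32.7, 34.1, 25.2 and 28.5 CPM in Visudyne samples 3, 6, 9, 12 and 15. Visudyne 12 lay just under vehicle 4, so the ranges overlapped at that single point, and the other 4 Visudyne samples exceeded every vehicle sample. The fitted fold was 1.56 (log2 fold change 0.64, SE 0.14), with 797 to 2348 counts per sample. Postn (ENSMUSG00000027750, chr3:54361109-54391037, plus strand), an integrin ligand that helps to crosslink collagen fibrils, was the least abundant of the 10, with 70 to 204 counts per sample. Vehicle samples had 1.71, 1.93, 1.77, 1.40 and 1.11 CPM and Visudyne samples 1.68, 1.63, 1.96, 3.68 and 2.35 CPM. Visudyne 12, at 3.68 CPM, stood above the rest, while Visudyne 3 and 6 lay inside the vehicle range. The log2 fold change of Postn was 0.51 (SE 0.24), and 0.27 without Visudyne 12. The same library had the lowest Fn1 of its group.

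Mgp (ENSMUSG00000030218, chr6:136872435-136875823, minus strand), a small vitamin K-dependent protein that keeps soft tissue from calcifying, had the highest fold of the 10 genes. Vehicle samples 1, 4, 7, 10 and 13 measured 9.19, 8.06, 4.49, 5.97 and 4.42 CPM, and Visudyne samples 3, 6, 9, 12 and 15 measured 14.4, 12.4, 12.6, 11.99 and 9.36 CPM. No Visudyne sample reached down to the vehicle range, although Visudyne 15 and vehicle 1 were close. The fitted fold was 1.89 (log2 fold change 0.92, SE 0.20). The coefficient of variation was 33.3% in vehicle and 14.8% in Visudyne samples, with vehicle 1 and 4 well above vehicle 7 and 13. Sparc (ENSMUSG00000018593, chr11:55394500-55423183, minus strand) encodes a collagen-binding glycoprotein that alters how cells attach to matrix. It measured 106, 86.3, 94.65, 100.5 and 79.2 CPM with vehicle and 105, 107, 101, 113 and 87.0 CPM with Visudyne. The groups overlapped over most of their range, and the log2 fold change was 0.14 (SE 0.09). It was 0.25 without vehicle 1 and Visudyne 15, which lie near opposite ends of the within-group axis. These were also the highest vehicle and the lowest Visudyne sample for Sparc. Without Visudyne 12, at the same end as vehicle 1 and highest for Sparc, the log2 fold change was 0.11.

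Islr (ENSMUSG00000037206, chr9:58156268-58204306, minus strand), a protein with leucine-rich repeats that marks mesenchymal cells, measured 11.4, 8.95, 7.31, 7.79 and 7.37 CPM in vehicle samples. Visudyne samples measured 13.8, 10.5, 11.4, 10.6 and 9.74 CPM. Vehicle 1 lay among the Visudyne samples, and the other 4 vehicle samples lay below all of them (log2 fold change 0.38, SE 0.13). Aebp1 (ENSMUSG00000020473, chr11:5861947-5872088, plus strand) encodes a carboxypeptidase-like protein that binds fibrillar collagen. Its vehicle samples measured 14.6, 18.6, 8.84, 9.43 and 7.52 CPM, and its Visudyne samples 18.7, 14.5, 12.6, 15.1 and 14.7 CPM. Vehicle 4 almost equalled Visudyne 3, and vehicle 1 also lay inside the Visudyne range, while the other 3 vehicle samples lay below it. The vehicle coefficient of variation of 39.6% was the widest of the 10 genes in that group. The log2 fold change of Aebp1 was 0.35 (SE 0.22), 0.58 without vehicle 4 and 0.23 without vehicle 13.

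The elastic fibre genes overlapped between the groups. Fbn1 (ENSMUSG00000027204, chr2:125300594-125507993, minus strand), the microfibril scaffold, measured 12.03, 14.9, 14.3, 12.9 and 15.2 CPM with vehicle and 15.7, 18.7, 17.4, 11.8 and 17.7 CPM with Visudyne. The first 3 and the last Visudyne sample exceeded every vehicle sample, but Visudyne 12 had the lowest Fbn1 of all 10 libraries. The log2 fold change was 0.23 (SE 0.11), and 0.33 without Visudyne 12. Eln (ENSMUSG00000029675, chr5:134702593-134747323, minus strand), the elastic core, ranged from 3.02 to 4.31 CPM with vehicle and from 3.48 to 4.69 CPM with Visudyne (log2 fold change 0.16, SE 0.12). It was 0.10 without Visudyne 6 and 0.23 without vehicle 4. Fbln1 (ENSMUSG00000006369, chr15:85205949-85286535, plus strand), a fibulin of elastic fibres and basement membranes, ranged from 6.68 to 10.2 CPM and from 9.18 to 11.3 CPM (0.23, SE 0.12). Fbln2 (ENSMUSG00000064080, chr6:91212455-91272540, plus strand), which binds fibrillin and fibronectin, ranged from 4.65 to 5.28 CPM and from 4.18 to 6.02 CPM. Its log2 fold change was 0.05 (SE 0.11), -0.016 without Visudyne 6 and 0.12 without Visudyne 12. Visudyne samples held both the lowest and the highest Fbln2 values, and the vehicle coefficient of variation was 5.95%, the smallest of the 10 in that group.

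**Figure D1:**
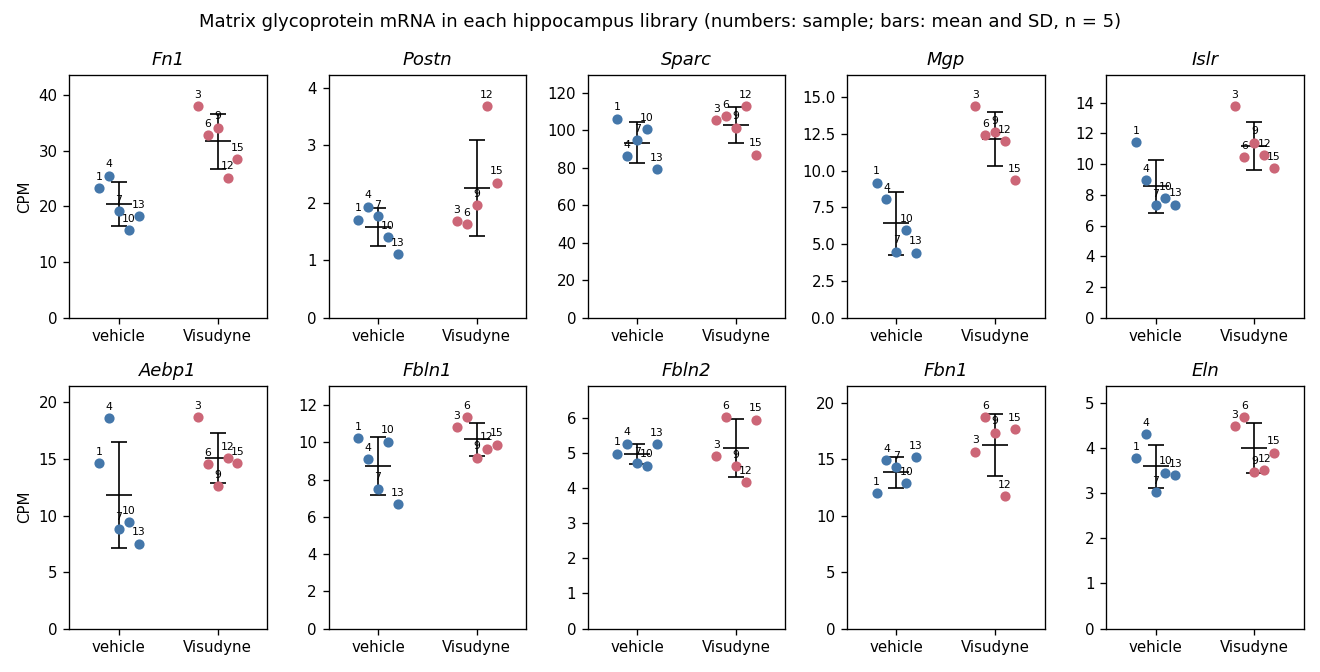
CPM of each gene (vertical axis, from 0) in vehicle and Visudyne libraries, with sample numbers beside the points and bars for mean and SD of 5 samples. Mgp is the single gene of the 10 without overlap (4.42 to 9.19 against 9.36 to 14.4 CPM), and Visudyne 12 is highest for Postn and lowest for Fbn1.

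All 10 genes had enough counts to be tested, and all 10 log2 fold changes were positive, with a median of 0.29, against a median of 0.0022 and 51.1% positive over the 19093 genes tested. None passed edgeR's quasi-likelihood test after adjustment over all genes. Across all genes tested, 0.021% were called higher (4 genes) and 0% lower. At an unadjusted p under 0.05, 3 of the 10 were higher (Fn1, Mgp and Islr), against 1.14% of all genes. DESeq2 called Fn1 and Mgp (0.0943% of all genes called higher), limma voom called 0 of the 10, voom with sample quality weights called Mgp (0.0681%), and edgeR with the sample number as covariate called Fn1 and Mgp (0.0995%). The groups did not overlap for 1 of the 10, Mgp, against 0.319% of all genes. With the sets as a block, edgeR called Fn1 and Mgp (0.0471% of all genes called higher, 9 genes), and within sets Fn1, Mgp, Islr and Eln were higher with Visudyne in 5 of 5. Fbln2 was higher in 2 of 5 sets, Postn in 3, and Aebp1, Sparc, Fbln1 and Fbn1 in 4. For these counts within sets there is no share over all genes to set beside them. Since the genes were picked with this contrast in view, nothing is read from these shares and counts.

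Levels between genes were compared per kilobase of the longest coding transcript, as CPM per kb over all 10 libraries. Sparc stood first at 42.6 ± 4.72 (SD, n = 10) CPM per kb and Mgp second at 15.1 ± 5.75, each above the next gene in every library. Islr (4.44 ± 0.932), Aebp1 (3.51 ± 1.01), Fn1 (3.13 ± 0.880) and Fbln1 (2.58 ± 0.390) followed, and each of the first 3 overlapped in range with its lower neighbour. Islr exceeded Aebp1 in 9 of 10 libraries, Aebp1 exceeded Fn1 in 7 and Fn1 exceeded Fbln1 in 8. The range of Fbln1 did not reach down to Fbn1 (1.26 ± 0.1999). Fbn1, Fbln2 (1.06 ± 0.123), Eln (0.988 ± 0.140) and Postn (0.600 ± 0.219) closed the order and overlapped with their neighbours. The order of the means was identical in vehicle and Visudyne samples. Fn1, second to Sparc in CPM, thus stood below Mgp, Islr and Aebp1 per kb, since its longest coding transcript has 8315 bases against 617 for Mgp. The order depends on the transcript length used, most of all for Fbln2, which had 10.6 CPM per kb with the median coding transcript.

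**Figure D2:**
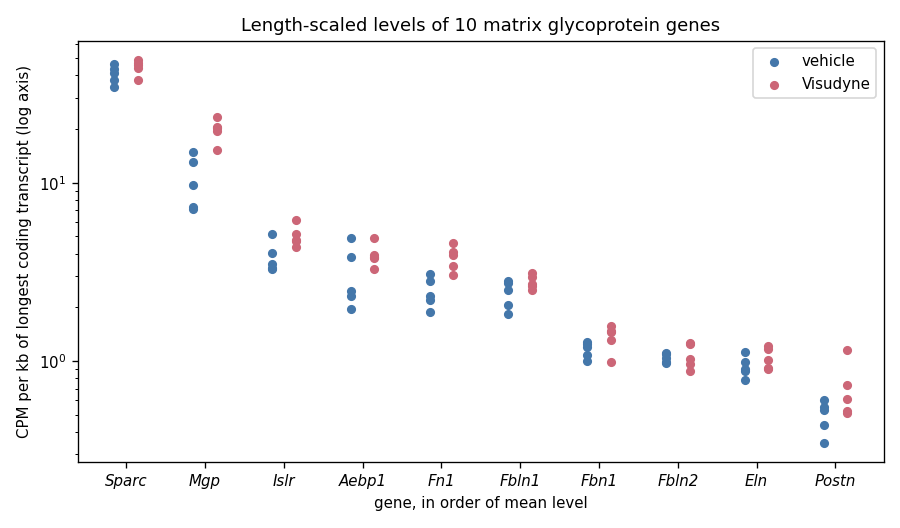
CPM per kb of longest coding transcript (log axis) for each gene, ordered by mean, with 1 point per library in vehicle and Visudyne samples. Sparc and Mgp lie apart from the rest, at means of 42.6 and 15.1 CPM per kb, and the last 4 genes overlap with their neighbours.

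Of 19 markers of meningeal and perivascular fibroblasts, 18 had positive log2 fold changes (median 0.29), against 51.1% of all genes, and 1 passed edgeR's test over all genes, against 0.021% called higher. The groups did not overlap for 4 of the 19 (Col1a1, Col1a2, Col3a1 and Slc47a1), against 0.319% of all genes. The marker lists were also chosen with earlier results of these data known, so nothing is read from these shares. The called gene was Col1a1, a fibrillar collagen gene, at 8.42 ± 2.30 and 19.0 ± 2.47 CPM (SD, n = 5 each; log2 fold change 1.18, SE 0.16, edgeR adjusted p = 0.049). The collagen genes Col3a1 and Col1a2 had 1.36 (SE 0.26) and 0.78 (SE 0.20), and the transporter gene Slc47a1 had 1.83 (SE 0.39). All other markers of the list overlapped between the groups. Their log2 fold changes were smaller, from -0.05 (Aldh1a2, SE 0.31) to 0.65 (Foxd1, SE 0.28). Among them Lum had 0.04 (SE 0.19) and Dcn 0.18 (SE 0.29). With vehicle 7, Visudyne 3 or Visudyne 6 left out in turn, 0 genes were called higher. The summed level of the fibroblast markers ran from 86.9 to 214 CPM with vehicle and from 199.8 to 255 CPM with Visudyne, and no marker was at 0 in any library. As a mean of log2 CPM, the list measured 2.90, 2.89, 2.06, 2.22 and 1.60 in vehicle samples 1, 4, 7, 10 and 13. The Visudyne samples measured 3.28, 2.96, 2.72, 2.67 and 2.85. Vehicle 1 and 4, high for Mgp and Aebp1, were also the highest vehicle samples for this list, and vehicle 13, lowest for both, was the lowest. The part of fibroblast RNA in the differences between groups was not tested. Endothelial markers (6 of 10 positive, median 0.01) summed to 170 to 211 CPM with vehicle and 172 to 206 CPM with Visudyne. Mural cell markers (2 of 11 positive, median -0.13) summed to 97.9 to 124 and 89.6 to 126 CPM, with Kcnj8 at 0 in at least 1 library of each group. Astrocyte markers (9 of 10 positive, median 0.06) summed to 4507 to 5120 and 4399 to 5236 CPM, and microglia markers (7 of 8 positive, median 0.07) to 224 to 278 and 230 to 281 CPM. Oligodendrocyte markers (3 of 6 positive, median -0.011) summed to 1660 to 2498 and 1650 to 2421 CPM. Choroid plexus markers (2 of 7 positive, median -0.23) summed to 28.0 to 218 and 25.8 to 52.5 CPM. No list had a gene at 0 in every library.

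To see which cells' markers each gene varied with, the mean of its group was subtracted from every value, which leaves only variation among samples of the same treatment and so does not use the contrast that chose the genes. Over 10 libraries, 70 relations (10 genes by 7 marker lists) were tested with an exact two-sided permutation within groups. After Benjamini-Hochberg adjustment 0 of the 70 passed at 0.05, by Pearson's r or by Spearman's rho. The values are therefore given as sizes. The permutation treats the 10 libraries as independent, and p is too small if samples of a set vary together. With an exact permutation of whole sets (120 orders, smallest possible p = 0.0083), 0 of the 70 passed, with an adjusted p of at least 0.23. A single relation at that smallest p cannot pass over 70 relations. A call was thus nearly out of reach of this permutation, and its count of 0 decides nothing. The 10 libraries share their scaling, and the marker lists also vary together.

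With the fibroblast level, Aebp1 had r = 0.94 (exact permutation p = 0.0025, adjusted 0.078; rho = 0.85, p = 0.021, adjusted 0.15). It had r = 0.93 without vehicle 1 and vehicle 13, the samples farthest out on the marker scale. Mgp had r = 0.87 (exact permutation p = 0.013, adjusted 0.11; rho = 0.85, p = 0.021, adjusted 0.15) and 0.77 without those samples. Islr had r = 0.79 (exact permutation p = 0.014, adjusted 0.11; rho = 0.78, p = 0.036, adjusted 0.18) and 0.71 without them. Fbln1 had r = 0.79 (exact permutation p = 0.047, adjusted 0.19; rho = 0.82, p = 0.029, adjusted 0.16), but 0.51 without them. Fn1 and Eln lay somewhat lower, at 0.73 (exact permutation p = 0.038, adjusted 0.18; rho = 0.70, p = 0.065, adjusted 0.24) and 0.71 (exact permutation p = 0.019, adjusted 0.14; rho = 0.83, p = 0.0065, adjusted 0.11). Without vehicle 1 and 13 their r was 0.78 and 0.89. Sparc (0.37), Postn (0.18), Fbln2 (0.16) and Fbn1 (-0.10) were closer to 0 (exact permutation p = 0.38, 0.60, 0.54 and 0.71; adjusted 0.62, 0.75, 0.71 and 0.83; rho = 0.27, 0.12, 0.42 and -0.10). Without vehicle 1 and 13 these 4 had r of -0.30, -0.23, 0.41 and 0.31, so their sign or size rested on those samples.

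Other lists were closer for some genes. Fn1 varied most like the endothelial markers, with r = 0.91 (exact permutation p = 0.0022, adjusted 0.078; rho = 0.94, p = 0.0013, adjusted 0.092) and 0.84 without Visudyne 12 and vehicle 10. Eln was nearest to the mural list, with r = 0.83 (exact permutation p = 0.0078, adjusted 0.096; rho = 0.84, p = 0.0059, adjusted 0.11) and 0.73 without Visudyne 3 and vehicle 4. Over all 10 libraries Sparc was nearest to astrocytes, with r = 0.82 (exact permutation p = 0.0080, adjusted 0.096; rho = 0.76, p = 0.020, adjusted 0.15) and 0.76 without Visudyne 12 and vehicle 1. With the endothelial list Sparc had r = 0.32 (exact permutation p = 0.39, adjusted 0.62), but 0.87 without Visudyne 12 and vehicle 10. Its nearest list thus rested on a few libraries. Fbn1 ran the other way, with r = -0.86 against the astrocyte level (exact permutation p = 0.0033, adjusted 0.078; rho = -0.87, p = 0.0036, adjusted 0.11) and -0.55 without Visudyne 12 and vehicle 1. Fbln2 had r = -0.73 with astrocytes (exact permutation p = 0.023, adjusted 0.14) and -0.80 without those samples. Mgp and Islr had r of 0.68 and 0.70 with the endothelial list (exact permutation p = 0.070 and 0.036, adjusted 0.23 and 0.18). Without Visudyne 12 and vehicle 10 these were 0.84 and 0.74. With microglia Mgp and Islr had 0.67 and 0.69, but 0.33 and 0.38 without vehicle 1 and vehicle 13.

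Astrocyte and microglia levels themselves lay along the within-group axis of all genes (r = 0.96 and 0.90 with its scores), whereas the fibroblast level did so less (0.38). Against these scores, a comparison added after the data were examined, Sparc had r = 0.88 and Fbn1 r = -0.86 (exact permutation p = 0.0015 and 0.00097, each adjusted 0.0076 over the 10 genes; rho = 0.89 and -0.85, p = 0.0028 and 0.0027, each adjusted 0.014). Without vehicle 1 and Visudyne 12 they had 0.86 and -0.69. These were the 2 of 10 genes past the threshold. With whole sets permuted neither passed (exact permutation p = 0.0083, the smallest that test can give, and 0.025, adjusted 0.083 and 0.12). At that smallest p Sparc could have passed over the 10 genes only if another gene had also reached it. This test therefore does not decide the call of Sparc. Fbln2, Islr and Mgp had r of -0.68, 0.631 and 0.625 (exact permutation p = 0.047, 0.067 and 0.049, adjusted 0.12, 0.13 and 0.12). Fbln1, Postn and Aebp1 had 0.46, 0.41 and 0.34. Fn1 (r = 0.03) and Eln (-0.03) lay across the axis (exact permutation p = 0.93 each, adjusted 0.93 each; rho = 0.07 and -0.12). Sparc and Fbn1 thus had r of opposite sign with an axis that many genes share. Compared directly, the pair had r = -0.65 (exact permutation p = 0.050, adjusted 0.27 over all pairs of the 10 genes). With whole sets permuted the exact permutation p of the pair was 0.12, adjusted 0.46.

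**Figure D3:**
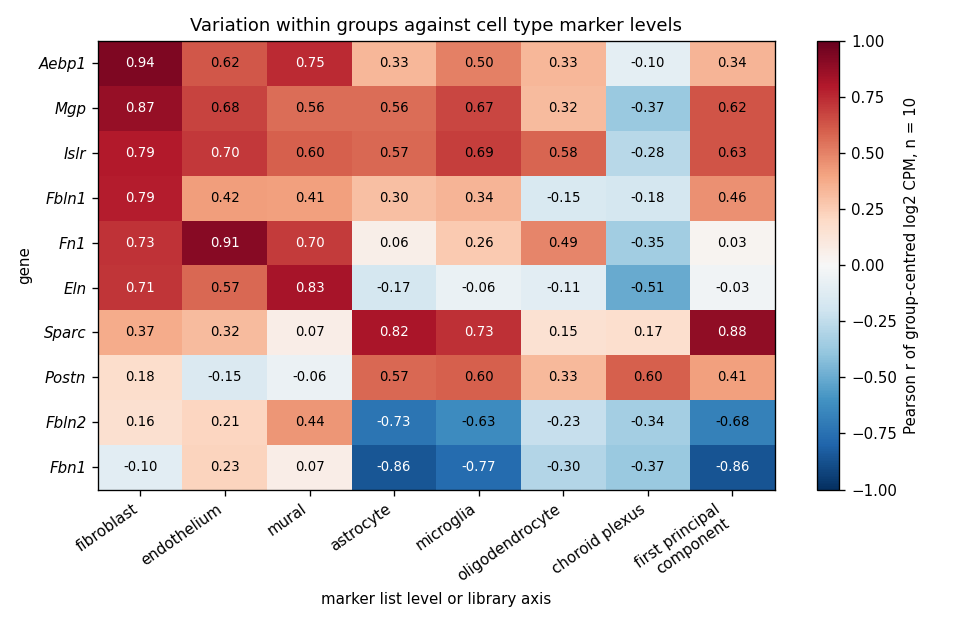
Pearson r of group-centred log2 CPM over 10 libraries, for each gene (rows) against the level of each marker list and the within-group axis (columns), from -1 (blue) to 1 (red). Aebp1 and Mgp are highest in the fibroblast column (0.94 and 0.87), Fn1 in the endothelial column (0.91), and Fbn1 is at -0.86 in the astrocyte column.

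**Figure D4:**
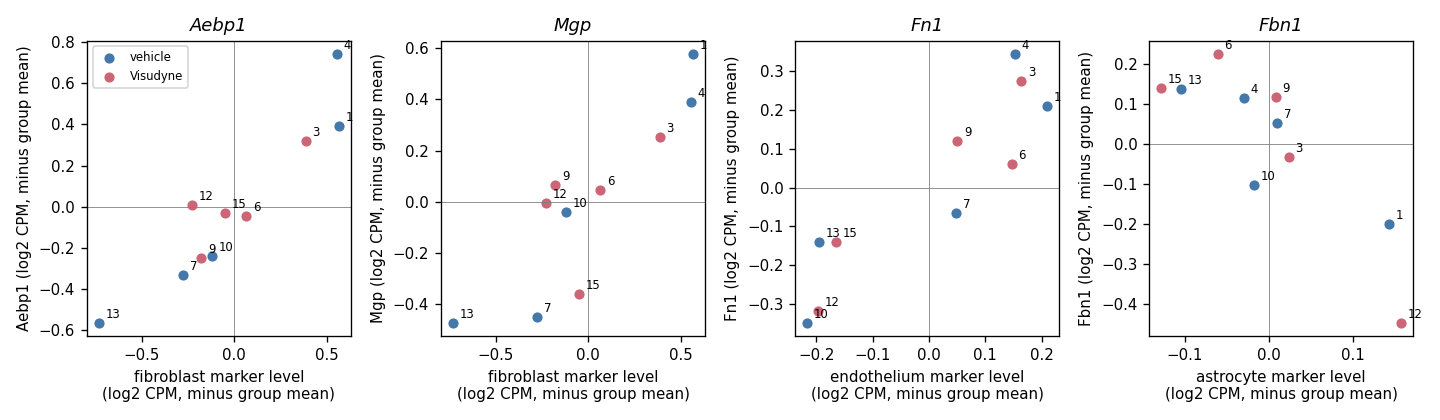
Group-centred log2 CPM of Aebp1 and Mgp against the fibroblast marker level, of Fn1 against the endothelial level and of Fbn1 against the astrocyte level, 1 point per library with its sample number. Vehicle 13 lies lowest and vehicle 1 and 4 highest on the fibroblast scale, and Visudyne 12 sets the lower right end for Fbn1.

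Pairs of the 10 genes were compared in the same way. Of 45 pairs 30 had a positive r, with a median of 0.29, and 1 passed after adjustment over the 45. This was Mgp with Islr (r = 0.89, exact permutation p = 0.00028, adjusted 0.013; rho = 0.96, p = 0.00056, adjusted 0.025), which had r = 0.82 without the 2 samples farthest out for Mgp. With whole sets permuted its exact permutation p was 0.0083, the smallest that test can give, and adjusted to 0.38. A single pair at that p cannot pass over 45 pairs. This test therefore cannot decide whether the call holds if sets are the independent units. Mgp and Islr also had r of 0.625 and 0.631 with the within-group axis that many genes share. Before adjustment 6 pairs had an exact permutation p under 0.05 for r. Among genes with a symbol whose log2 CPM averaged 1 or more, the nearest to Mgp in within-group variation were Scarf2 (r = 0.97 over 10 libraries), Cavin1 (0.96) and Shf (0.95). Those nearest to Islr were Shf (0.96), Ubqln4 (0.96) and Pip5k1c (0.95), so that Shf stood in both lists. Aebp1 was nearest to St3gal6 (0.97), Spp1 (0.97), which encodes osteopontin, and Bicc1 (0.95). Fn1 was nearest to Brinp3 (0.97), Plau (0.97), the urokinase plasminogen activator gene, and Grm2 (0.95). Eln was nearest to Myh11 (0.96), the smooth muscle myosin heavy chain gene, Slc6a6 (0.95) and Pard6a (0.93). Sparc was nearest to Grik1, Nim1k and Klhdc1 (0.98 each), and Fbn1 to Slc26a1, Pisd-ps2 (0.98 each) and Klhdc4 (0.97). For Fbln1 the nearest were Slc25a24, Vegfc (0.93 each) and Kctd8 (0.91), for Fbln2 Gpr45 (0.97), Iqcc and Carmil3 (0.96 each), and for Postn Pank2 (0.95), Uchl5 (0.92) and Lbp (0.91). Each list takes the highest of 12916 or 12917 values of r over 10 libraries, so these are descriptions.

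Other genes of the same matrix were taken from lists of 77 genes, of which 75 were tested. In edgeR's test 0 passed after adjustment over all genes, in either direction. DESeq2, voom with sample quality weights and edgeR with the sample number each called 1, Lox, where they called 0.0943%, 0.0681% and 0.0995% of all genes higher. Plain voom called 0, as did edgeR with the sets as a block. The groups did not overlap for 4 of the 75 (Lox, Tgfbi, Frem2 and Cpz), against 0.319% of all genes. Of the 75, 60 had positive log2 fold changes (80.0%), with a median of 0.09. These lists were likewise chosen with earlier results of these data known, so nothing is read from these shares.

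All 16 elastic fibre and microfibril genes had positive log2 fold changes, with a median of 0.14. Lox, the oxidase that crosslinks elastin and collagen, measured 0.421 ± 0.176 CPM with vehicle and 1.26 ± 0.274 CPM with Visudyne (SD, n = 5 each; log2 fold change 1.58, SE 0.29, edgeR adjusted p = 0.332). The vehicle samples ranged from 0.219 to 0.657 CPM and the Visudyne samples from 0.819 to 1.52 CPM, without overlap. Counts of Lox were low, down to 11 per sample. Ltbp2, a microfibril-associated protein of the latent TGF-beta binding family, measured 0.634 ± 0.0564 and 1.17 ± 0.363 CPM (SD, n = 5 each; 0.89, SE 0.23, edgeR adjusted p = 0.9999). Next by p were Loxl1, a relative of Lox, with a log2 fold change of 0.31 (SE 0.11), and Emilin1, a glycoprotein of the elastin and microfibril interface, with 0.64 (SE 0.25). Mfap5, a microfibril protein, had 0.45 (SE 0.29), and Efemp1, a fibulin, had 0.27 (SE 0.14). The other 10 lay between 0.0030 (Mfap4, SE 0.13) and 0.15 (Fbln7, SE 0.20), and Fbln5, which elastic fibre assembly requires, had 0.05 (SE 0.20).

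Of 25 tested adhesive glycoproteins 20 were positive, with a median of 0.09. Tgfbi, an integrin-binding protein with the fasciclin domains that periostin also has, measured 2.45 ± 0.472 and 3.60 ± 0.421 CPM (SD, n = 5 each; log2 fold change 0.55, SE 0.15), and its groups did not overlap. Thbs1, a thrombospondin that activates TGF-beta, measured 3.58 ± 0.924 and 5.54 ± 0.872 CPM (SD, n = 5 each; 0.63, SE 0.17). Frem2, a basement membrane adhesion protein, measured 5.70 ± 0.322 and 6.48 ± 0.247 CPM (SD, n = 5 each; 0.19, SE 0.07), also without overlap. Vitronectin (Vtn) had -0.03 (SE 0.16) and tenascin C (Tnc) 0.06 (SE 0.14). In the SPARC family 4 of 7 were positive, with a median of 0.01, and Smoc1 (0.31, SE 0.10) and Spock1 (0.12, SE 0.07) had the smallest p. Sparcl1, the abundant astrocytic relative of Sparc, measured 1130 ± 91.3 and 1119 ± 90.9 CPM (SD, n = 5 each). Among relatives of Aebp1 and Islr 3 of 4 were positive. Cpz, a secreted carboxypeptidase, had 1.47 (SE 0.38), without overlap of the groups but on as few as 2 counts per sample, and Cpxm1, a relative of Aebp1, had 0.19 (SE 0.12).

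Of 13 basement membrane genes 11 were positive, with a median of 0.12. The smallest p belonged to the laminin chain gene Lama2 (0.14, SE 0.05) and to nidogen 1 (Nid1; 0.35, SE 0.14), which also had the highest fold. The perlecan gene Hspg2 and Lama1 had 0.18 each (SE 0.13 and 0.12). Of 10 fibronectin receptor genes 6 were positive, with a median of 0.01. The integrin chains Itgb5 and Itgb1 had 0.08 (SE 0.07) and 0.09 (SE 0.08), and Itga5, the partner of Itgb1 in the main fibronectin receptor, measured 1.18 ± 0.271 and 1.19 ± 0.381 CPM (SD, n = 5 each; 0.0094, SE 0.25). Apart from Lox, each gene named from these lists had an edgeR adjusted p of 0.9999.

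**Figure D5:**
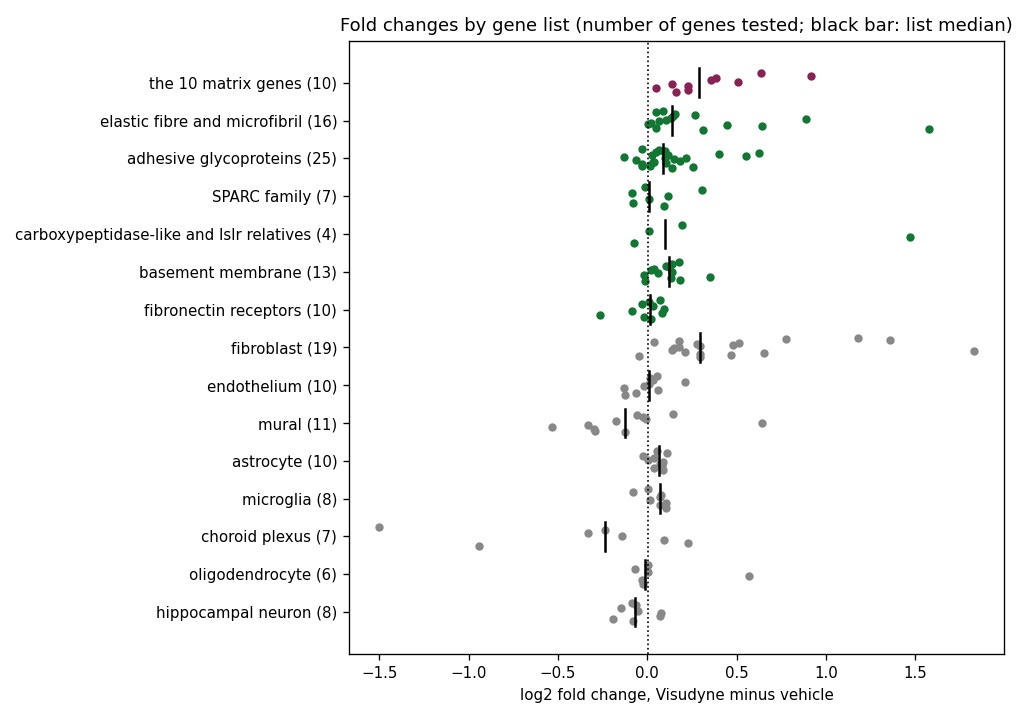
Log2 fold change (Visudyne minus vehicle) of each tested gene in the 10 described genes, the matrix lists and the cell type marker lists, with the number tested; black bars are list medians and the dotted line is the median of all genes. The 10 genes and the fibroblast markers both have a median of 0.29, and Lox is the point at 1.58.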

How the data were processed

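The table deposited by the authors gives estimated counts for 28871 Ensembl gene identifiers in 10 samples. The submitters' processing notes name Salmon, FastQC and the build mm10; their versions and the annotation release are not given. The library kit keeps strand, per the labels' protocols. All deposited values were whole numbers, so rounding had no effect. Symbols, coordinates and transcript lengths came from GENCODE M21 (GRCm38), and 28564 identifiers matched. Counts of all 45 library pairs differed beyond sampling noise (lowest chi-square 9.58 per degree of freedom), so each library was counted once.

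The contrast was tested with edgeR 4.0.16 (R 4.3.3): its default filter left 19093 genes, followed by TMM scaling, the quasi-likelihood test and Benjamini-Hochberg adjustment at 0.05. SEs were derived from the F statistics. Relations within groups used log2 CPM with a prior count of 2, group means subtracted, and all 14400 permutations within groups. The scripts were tested on simulated data. Alternatives were other scalings and filters, removal of mitochondrial genes, DESeq2 1.42.0, limma 3.58.1 voom with and without quality weights, the sample number as covariate, and omission of each sample. Omitting vehicle 1 and Visudyne 15 together, and treating sets of 3 consecutive sample numbers as a block (in edgeR) or permuting them whole (120 orders), were added after the data were examined. The genes described, the lists and the rule for named genes (all 10 genes, list genes past the threshold and the 2 of smallest p per list, and the 3 genes most alike each of the 10) were chosen with earlier results of these data known. Loxl1, Emilin1, Mfap4, Mfap5, Efemp1, Fbln5, Fbln7, Frem2, Vtn, Tnc, Sparcl1, Hspg2, Lama1, Itga5, Col1a2, Col3a1, Slc47a1, Aldh1a2, Foxd1, Lum and Dcn were named after their values were seen. Near-identical sequences share reads in Salmon's estimates. All columns were used.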

Additional observations from a re-analysis of the deposited data

Results flagged for a closer look

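Outlying samples were looked for in each group of 5, for the 10 genes and the 7 marker lists, which makes 34 checks; chance flags about 1 in 20. In 1 of them a sample stood apart by Dixon's criterion: the choroid plexus marker level of vehicle 7 was 2.46 (mean log2 CPM), with the nearest vehicle sample at 0.631, a gap of 0.747 of the group's range. The summed level of these markers reached 218 CPM in vehicle samples. Vehicle 7 was the highest vehicle sample for none of the 10 genes, and it had the lowest Islr and Eln of its group. The part of this library in the results was not tested beyond its omission.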

How the results depend on the processing

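The groups share no sample number, and the sets of 3 consecutive numbers served as the replicate block, chosen after the data were examined; every set's correlation was above 0.1, the lowest at 0.11, and 4 of the 10 samples were closest to their own set. With this block edgeR called Fn1 (0.64, edgeR adjusted p = 0.019) and Mgp (0.95, edgeR adjusted p = 0.04991), 2 of the 10 genes, and over all genes 9 higher and 1 lower; it called 0 of the 75 other matrix genes. Over 21 alternatives all but 3 of 210 log2 fold changes of the 10 genes stayed positive, and those of Fbln2, 0.12 at the highest (without Visudyne 12), were -0.016 without Visudyne 6, -0.012 without Visudyne 15 and -0.0049 without vehicle 1 and Visudyne 15 together. The count of the 10 genes called higher was 2 with DESeq2 (Fn1 0.64, adjusted p = 0.0057; Mgp 0.92, adjusted p = 0.0051), 2 with the sample number as covariate (Fn1 0.73, edgeR adjusted p = 0.014; Mgp 1.08, edgeR adjusted p = 0.011) and 1 with voom and sample quality weights (Mgp 1.12, adjusted p = 0.036). Apart from these and the block it was 0, and over all alternatives the adjusted p of Fn1 ran from 0.0057 to 1.0 and that of Mgp from 0.0051 to 1.0. The 77 matrix genes gave 1 call, Lox, with DESeq2, the sample number and quality weights each. Over all genes, 4 were called higher in the main test, 2 with upper-quartile scaling, 2 without mitochondrial genes, 18 with DESeq2, 13 with quality weights, 19 with the sample number, and 1 higher and 1 lower without vehicle 1 and Visudyne 15. Leaving out 1 sample gave 0 to 4 higher and 0 to 1 lower genes; it was 0 higher without vehicle 7, Visudyne 3 or Visudyne 6. The cause was not tested. Of the relations with marker lists, leaving out 1 sample gave 0 to 1 calls for the mural list (Fn1, without Visudyne 9), and the 15 alternatives gave no other call. The permutation of whole sets, 1 of the 15, could hardly have given a call. The r of Aebp1 with the fibroblast level stayed between 0.92 and 0.96, while that of Sparc ran from -0.03 to 0.61. With the median coding transcript, levels were 73.4 CPM per kb for Sparc, 3.19 for Fbln1 and 10.6 for Fbln2, since shorter transcripts divide the same counts. Depth limits Postn most, at 70 counts in the lowest sample.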
